A study of Mus musculus with 10 samples.

Results

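The transition protein genes Tnp1 and Tnp2 and the protamine genes Prm1, Prm2 and Prm3 of the mouse were examined in RNA-seq of testis. They were chosen by gene symbol, and are 5 of the 20007 genes listed for adult testis. Of the 17816 genes listed for Sertoli cells at 7 days after birth, Tnp1 was the only one of the 5. Adult testis was represented by 3 samples labelled WT and 3 labelled as a conditional knockout of Rnf20 (cKO), and day 7 Sertoli cells by 2 samples of each label. Rnf20 encodes an E3 ubiquitin ligase that places ubiquitin on histone H2B. In the study, Cre recombinase under the Amh promoter, which is active in Sertoli cells, removed a floxed part of Rnf20, and the mice are called Amh-Rnf20-/-. Their controls are called Rnf20 Flox/Flox in the study and WT in the labels. Cre was directed to the Sertoli cells and not to the germ cells in which the 5 genes are expressed. The strain and the age in adults are not given in the sources used here. Each library was made from RNA enriched with oligo(dT), and held between 15431912 and 17705347 counts.

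Transition proteins and protamines are small nuclear proteins of the haploid germ cells. During the elongation of spermatids, histones are evicted, transition proteins TNP1 and TNP2 take their place, and the arginine-rich protamines PRM1 and PRM2 then replace the transition proteins and condense the DNA of the sperm head. Their genes are transcribed in round spermatids, and the mRNAs are held in an untranslated state until the spermatids elongate. Prm3, which lies among them, is named for its position, and it encodes an acidic protein.

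In RefSeq genes on GRCm38.p6, Tnp2 (Entrez 21959, chr16:10787935-10788655), Prm3 (Entrez 19120, chr16:10790508-10790914), Prm2 (Entrez 19119, chr16:10791377-10792105) and Prm1 (Entrez 19118, chr16:10796332-10796823) lie on the minus strand within 8889 bases, with no other gene of that annotation between them. Tnp1 (Entrez 21958, chr1:73015074-73015899) lies apart, also on the minus strand. In GENCODE M21 the first transcript of Prm3 has 1 exon and that of each of the other 4 genes has 2 exons. The coding parts are 153 bases long in Prm1, 165 in Tnp1, 303 in Prm3, 321 in Prm2 and 351 in Tnp2.

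The 150 bases upstream of each transcription start are shown because these genes moved together in the adult samples. They come from RefSeq promoters on GRCm38.p6 and are written 5′ to 3′ on the strand of the gene, at chr1:73015900-73016049 for Tnp1, chr16:10788656-10788805 for Tnp2, chr16:10796824-10796973 for Prm1, chr16:10792106-10792255 for Prm2 and chr16:10790915-10791064 for Prm3. Capitals mark the letters TGACNTCA, with N for any base, read on either strand (TGANGTCA on the other), and the letters TATATA read on the strand of the gene.
Tnp1: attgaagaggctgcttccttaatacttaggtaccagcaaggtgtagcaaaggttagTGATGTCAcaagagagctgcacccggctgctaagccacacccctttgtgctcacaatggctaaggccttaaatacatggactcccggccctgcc
Tnp2: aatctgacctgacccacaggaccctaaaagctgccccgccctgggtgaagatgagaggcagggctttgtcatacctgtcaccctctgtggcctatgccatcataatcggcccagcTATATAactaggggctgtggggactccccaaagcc
Prm1: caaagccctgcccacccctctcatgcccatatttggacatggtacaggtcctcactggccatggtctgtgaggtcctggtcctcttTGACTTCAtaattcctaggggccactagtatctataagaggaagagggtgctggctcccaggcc
Prm2: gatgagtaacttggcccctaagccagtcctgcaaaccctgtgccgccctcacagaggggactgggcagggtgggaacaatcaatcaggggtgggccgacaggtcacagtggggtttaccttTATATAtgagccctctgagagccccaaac
Prm3: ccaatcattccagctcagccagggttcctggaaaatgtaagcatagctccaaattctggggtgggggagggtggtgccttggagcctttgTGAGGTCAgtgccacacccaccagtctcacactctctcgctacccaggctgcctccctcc

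TGACNTCA matches all but 1 of the letters of TGACGTCA, the palindrome bound by CREB and CREM proteins. Within 250 bases upstream it occurred once in Prm1, as TGACTTCA at 64 bases before the start, in Prm3 as TGAGGTCA at 60 bases, and in Tnp1 as TGATGTCA at 94 bases. It was thus found in 3 of 5 promoters, and in 7.49% of all 32817 RefSeq promoters of the same length. The full palindrome TGACGTCA, a special case of the same letters, was in 0 of 5, and in 1.55% of all. The letters TATATA stood 29 bases before the start of Prm2 and 35 bases before that of Tnp2, the other 2 genes, and were in 5.25% of all promoters. The letters TATAAA on the strand of the gene were in 0 of 5 (7.6% of all), and CCAAT on either strand was in Prm3 alone (33.8% of all). These matches describe the letters only.

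In the adult testis samples labelled WT, 4 of the 5 genes were the most abundant of all genes listed. Levels are given as FPKM, which are fragments scaled by transcript length and by the size of the library, so that genes of unequal length can be set side by side. Prm1 had 73381.51, 89249.51 and 52396.37 FPKM in WT replicates 1, 2 and 3, and ranked first of all genes in each of them. Tnp2 followed with 36678.89, 41330.77 and 27002.18 FPKM. Tnp1 had 27852.47, 29256.03 and 20990.6 FPKM. These 3 genes kept that order in every WT sample, and the lowest sample of Prm1 lay above the highest of Tnp2.

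Prm2 had 25733.92, 28317.88 and 19401.7 FPKM in the same samples. It came next after Tnp1 in each, although its range overlapped that of Tnp1, and the means differed by less than their SD (24485 ± 4588 for Prm2, 26033 ± 4423 for Tnp1, SD, n = 3). The ranges of Tnp1 and Tnp2 overlapped as well. The next gene by mean, Meig1, had 6848 FPKM. Prm3 was far lower, with 704.47, 2164.98 and 1366.53 FPKM, and ranked 188, 40 and 56. Its coefficient of variation over the WT samples was 51.8%, against 17.0% to 25.8% for the other 4 genes, and its lowest sample was replicate 1, where each of the others was lowest in replicate 3.

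The order of the genes depends in part on the length used. FPKM of such short mRNAs divide by an effective length, and counts and FPKM here implied 148 bases for Prm1, 174 for Tnp1, 295 for Tnp2, 369 for Prm2 and 155 for Prm3, where the first GENCODE transcripts are 469, 437, 554, 621 and 410 bases long. Per full transcript length, Prm2 lay above Tnp1, and the ratio of Prm1 to Prm2 was 1.54 ± 0.107 (SD, n = 3 WT samples) instead of 2.90 ± 0.230 in FPKM. Prm1 stayed first and Prm3 last on both scales. The ratio of Prm1 to Prm2 was 2.85, 3.15 and 2.70 in FPKM in the WT samples, and that of Tnp1 to Tnp2 was 0.759, 0.708 and 0.777. The ratio of Prm3 to Prm1 spread more widely, from 0.0096 in WT replicate 1 to 0.0243 and 0.0261 in the others.

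**Figure D1:**
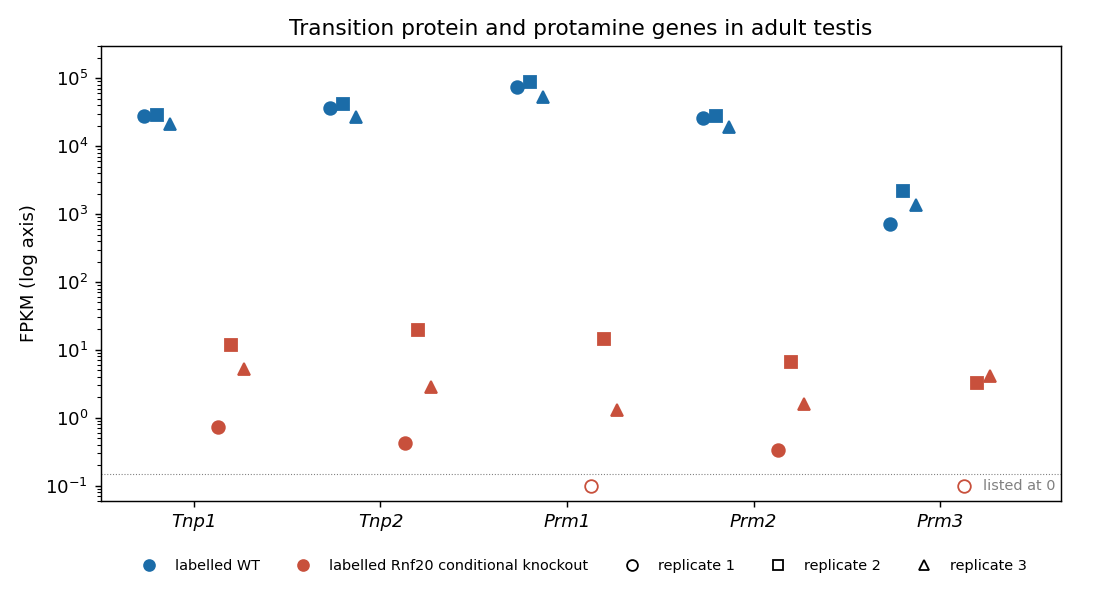
FPKM of each gene in the 6 adult testis samples on a log axis, with colour for the label and symbol for the replicate, and open symbols for a gene listed at 0. Every sample labelled cKO lies below every sample labelled WT for each gene, by a factor of at least 170 for Prm3 between the nearest samples.

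The 5 genes together took 3.59%, 4.09% and 2.72% of all counts in WT replicates 1, 2 and 3 (mean 3.47 ± 0.69, SD, n = 3). In TPM, which give each gene its share of transcripts, they took 17.7%, 19.1% and 14.3%. TPM divide by the short effective lengths given above, so these shares also depend on the length used. In counts, Prm1 and Tnp2 each took 1.08% of the library in replicate 1 and Prm3 0.0108%. In the samples labelled cKO the 5 genes held 6 of 15911854 counts, 206 of 16206180 and 49 of 15431912, or 3.77e-05%, 0.00127% and 0.000318%. The groups did not overlap (p = 0.1 by an exact permutation test on both sides, which 3 samples against 3 cannot go below).

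**Figure D2:**
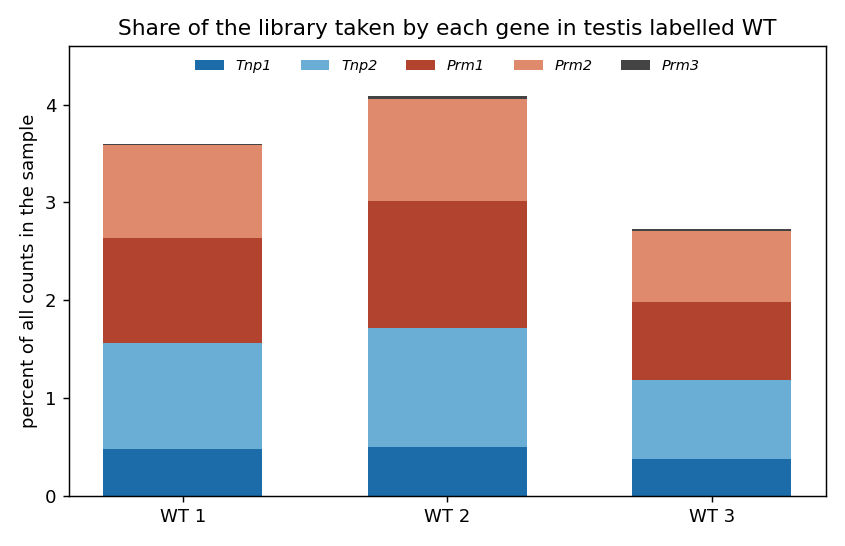
Percent of all counts in each adult sample labelled WT that fell to each of the 5 genes, as stacked bars. Prm1, Tnp2 and Prm2 make up most of each bar, the total is between 2.72% and 4.09%, and Prm3 is a thin line at the top; the samples labelled cKO, at 0.00127% or less, would not be visible.

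To learn whether the mRNAs of sperm chromatin are present in adult testis of the conditional knockout, the adult groups were compared. All 5 genes were lower in the samples labelled cKO, with log2 fold changes between −14.6 and −10.02. Rnf20 itself does not check the labels in whole testis: it had 4.89, 3.32 and 4.09 FPKM in the WT samples and 9.16, 5.76 and 9.85 in those labelled cKO. Every sample labelled cKO was thus higher in FPKM, while after TMM scaling the groups overlapped and the log2 fold change was 0.12 ± 0.27 (SE, adjusted p = 0.688, edgeR quasi-likelihood test). The directions below rest on the labels as given. In bulk tissue, fewer cells of a type and less RNA per cell cannot be told apart.

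Of the transition protein genes, Tnp1, which encodes the shorter transition protein, had 0.74, 11.95 and 5.16 FPKM in cKO replicates 1, 2 and 3. These values came from 2, 33 and 14 counts. Its log2 fold change was −12.97 ± 1.20 (SE, adjusted p = 0.000149, edgeR quasi-likelihood test with Benjamini-Hochberg adjustment). Tnp2, whose product has zinc-binding motifs, had 0.43, 19.46 and 2.83 FPKM in the samples labelled cKO, from 2, 92 and 13 counts. Its log2 fold change was −13.05 ± 1.76 (adjusted p = 0.000659). For both genes the WT samples lay between 20990.6 and 41330.77 FPKM, so the groups were far apart.

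Of the protamines, Prm1 had 0, 14.5 and 1.3 FPKM in cKO replicates 1, 2 and 3, from 0, 34 and 3 counts. Its log2 fold change of −14.6 ± 1.93 (adjusted p = 0.000608) ranked second from the bottom of the 15919 genes tested. Prm2, whose product is made as a precursor and then shortened, had 0.34, 6.58 and 1.57 FPKM, from 2, 39 and 9 counts. Its log2 fold change was −13.94 ± 1.41 (adjusted p = 0.000207), at rank 4. Tnp2 and Tnp1 followed at ranks 8 and 10.

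Prm3 had 0, 3.26 and 4.14 FPKM in the samples labelled cKO, from 0, 8 and 10 counts. Its log2 fold change was −10.02 ± 1.03 (adjusted p = 0.000223), at rank 99. It started from the lowest WT level of the 5, so a floor of 3 counts in every cKO sample would have been only 1126-fold below its WT mean, where the same floor lies 54567-fold below that of Prm1. All 5 genes passed the thresholds of the study, which are a difference of more than 1 on the log2 scale in either direction at an adjusted p below 0.001. Of all genes tested, 46.7% passed them, 23.7% in the lower and 23% in the higher direction. Each of the 5 genes also had every cKO sample below every WT sample, as did 43.1% of all genes, while in 42.4% every cKO sample lay above. The median log2 fold change of the 5 was −13.05, against 0.01 over all genes tested.

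The calls depended on the fit and on which sample was left out. With all samples kept, all 5 genes lost the call with the replicate number as a block (edgeR, adjusted p 0.00202 to 0.00459), and Prm3 lost it with limma on log2(FPKM + 0.1) (adjusted p = 0.00114). With WT replicate 1, 2 or 3 or cKO replicate 3 left out, none of the 5 genes kept an adjusted p-value under 0.001, with values between 0.0011 and 0.00496, and without cKO replicate 2 Prm3 lost it (0.00257). Without cKO replicate 1 all 5 passed (adjusted p 2.95e-08 to 2.65e-06). That fit called 10301 of the 15919 genes tested, where 7434 were called with every sample kept. Leaving out 1 of the other samples brought the total to 2695 to 4688, and the replicate block brought it to 0. Gains and losses under the block or with a sample left out were thus not particular to these 5 genes. The log2 fold changes of the 5 genes stayed between −9.34 and −17.48 in these fits. The lowest, of Prm1 without cKO replicate 2, depends on a group that holds 0 and 3 counts, and the WT mean is then at least 54567-fold higher than the floor of 3 counts. A change of scaling did not turn a direction: total counts in place of TMM factors moved the median of all genes from 0.01 to 0.87 and that of the 5 genes to −12.18, with all 5 past the thresholds.

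What remained in the samples labelled cKO was uneven. Replicate 1 held 0 to 2 counts of each gene, for which counting error alone allows up to 7.23 counts (exact Poisson 95% interval, upper bound for 2 counts). Between replicates 2 and 3, sequenced to like depth, Prm1 differed most in FPKM. It had 34 counts (23.6 to 47.5) in replicate 2 and 3 counts (0.619 to 8.77) in replicate 3, an 11.2-fold difference in FPKM. These 3 counts are at the floor, so the size of this difference and its rank above that of Tnp2 are uncertain. Tnp2, with 92 counts (74.2 to 113) against 13 (6.92 to 22.2), and Prm2, with 39 (27.7 to 53.3) against 9 (4.12 to 17.1), also had counting intervals that did not overlap, at 6.88-fold and 4.19-fold. The intervals of Tnp1, with 33 counts (22.7 to 46.3) against 14 (7.65 to 23.5), met at their edges. Those of Prm3, with 8 counts (3.45 to 15.8) against 10 (4.80 to 18.4), overlapped widely.

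Ratios within a sample could be formed only in part, because cKO replicate 1 held at most 3 counts of every gene, and they were not tested. Tnp1 to Tnp2, the only ratio with both genes over 3 counts in 2 of the samples labelled cKO, was 0.614 in replicate 2 and 1.82 in replicate 3, below and above the 0.708 to 0.777 of the WT samples. In cKO replicate 2 the ratio of Prm1 to Prm2 was 2.20 in FPKM, below the 2.70 to 3.15 of the WT samples. It rests on 34 and 39 counts, with wide counting intervals (23.6 to 47.5 and 27.7 to 53.3). No interval was formed for the ratios, so whether this ratio and Tnp1 to Tnp2 differ from the WT samples is uncertain. Prm1 to Tnp1 was 1.21 there, where the WT samples had 2.64, 3.05 and 2.50. Prm3 to Prm1 was 0.225, against at most 0.0261 in the WT samples. Prm1, first in every WT sample, lay below Tnp2 in cKO replicate 2, at 14.5 against 19.46 FPKM. These values come from 34 and 92 counts, and their counting intervals overlap on the FPKM scale, so this order is uncertain. In cKO replicate 3 the 5 genes held 3 to 14 counts each, and the counting intervals of Tnp1, Tnp2 and Prm3 overlapped, as did those of Prm1 and Prm3, so their order there is uncertain.

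The 5 genes were then set beside markers of germ cell stages, since each sample's scale cancels within the sample. As a percent of the WT mean, the median of the 5 genes was 0.00123, 0.0459 and 0.00809 in cKO replicates 1, 2 and 3. For 10 markers of elongating spermatids, such as the sperm tail gene Odf1 and the mitochondrial capsule gene Smcp, the medians were 0.00493, 0.454 and 0.387. For 10 markers of round spermatids, such as the acrosomal gene Acrv1, they were 0.0623, 1.82 and 2.09. For 10 markers of spermatocytes, such as the synaptonemal complex gene Sycp3, they were 0.0482, 11.6 and 20.5. In replicates 2 and 3 the median was therefore lower for each later stage, and that of the 5 genes was the lowest of these medians. Single genes did not follow that order, since Prm3 kept 0.231% and 0.293% of its WT mean in these replicates, above the elongating spermatid markers Spem1 (0.155% and 0.0464%) and Fscn3 (0.137% and 0.0196%).

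**Figure D3:**
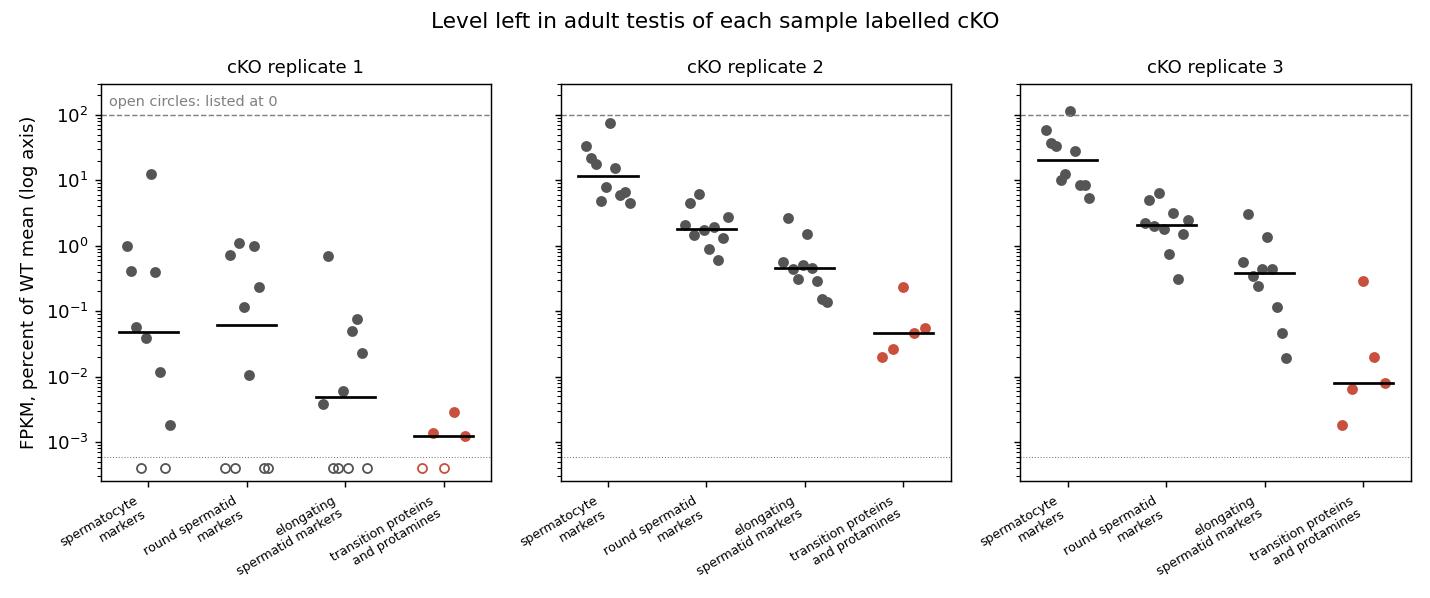
Level left in each adult sample labelled cKO as percent of the WT mean FPKM on a log axis, 1 panel per sample, with a point for each gene, a bar at the median of a list, open points for genes listed at 0 and a dashed line at 100%. In cKO replicates 2 and 3 the medians step down from spermatocyte markers (11.6% and 20.5%) to the transition proteins and protamines (0.0459% and 0.00809%), and in cKO replicate 1 all 4 medians are at or below 0.0623%.

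Relative to the mean of the round spermatid markers on the log2(FPKM + 0.1) scale, the difference of Prm1 between the labels was −8.78, and its values of 7.71 to 8.44 in the WT samples did not overlap those of −1.80 to 1.63 in the samples labelled cKO. The differences were −5.77 for Tnp1, −6.46 for Tnp2, −6.83 for Prm2 and −3.18 for Prm3 relative to the same markers, with no overlap (exact permutation p = 0.1 for each on both sides, which cannot be smaller here, and 0.111 after adjustment over 10 comparisons). Relative to the elongating spermatid markers the differences were −6.49 for Prm1, −4.53 for Prm2, −4.17 for Tnp2 and −3.48 for Tnp1 (exact permutation p = 0.1 each, adjusted 0.111). For Prm3 the difference was −0.88 and the groups overlapped (exact p = 0.2, adjusted 0.2). With 1 sample left out, the difference from the round spermatid markers ran from −9.91 without cKO replicate 2 to −8.20 without cKO replicate 3 for Prm1 and from −7.15 to −5.76 without the same samples for Tnp2, and for Prm2 it was −6.16 without cKO replicate 3. Relative to the elongating spermatid markers Prm1 was at −7.45 without cKO replicate 2, and Tnp1 was at −4.15 with a pseudocount of 1. The difference of Prm3 from the elongating spermatid markers ran from −1.31 without cKO replicate 3 to −0.47 without cKO replicate 1. A gene with a lower WT level reaches the floor sooner, so part of these differences is set by the WT level, and values of cKO replicate 1 are at or near that floor.

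Replicates 2 and 3 labelled cKO were nearly equal in several of the elongating spermatid markers, with 10.35 and 10.34 FPKM of Odf1, 4.2 and 3.61 of Akap4 and 20.25 and 15.51 of Smcp. Others were higher in replicate 2, as Prm1, Prm2 and Tnp2 were: Spem1 had 2.24 and 0.67 FPKM, and Fscn3 0.28 and 0.04. Odf2 alone of that list was lower in replicate 2, with 45.33 and 52.48 FPKM. These markers were chosen after their values were seen. The median of the spermatogonial markers was higher in replicate 3, at 92.6% of the WT mean in replicate 2 and 175% in replicate 3. Sertoli cell markers, at 654.5% and 809%, were also slightly higher in replicate 3. Their part in the difference between the samples was not tested.

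Genes that act on the same chromatin were followed as a fixed list. The list counts below stand beside 23.7% of all genes called lower and 23% called higher in adult testis. Of 8 spermatid histone variants and chromatin proteins, 6 fell and 2 missed the thresholds, and the median log2 fold change was −8.78. H2al2a, a short histone that opens nucleosomes for the transition proteins, fell by 12.91 on the log2 scale (SE 0.598, adjusted p = 2.79e-05, edgeR quasi-likelihood test), from 906.61 to 1229.77 FPKM in the WT samples to 0, 0.22 and 0.45. Hmgb4, a protein of the HMG box family, fell by 10.17 (SE 1.38, adjusted p = 0.000682). The testis-specific linker histone gene H1f6 fell by 4.14 (SE 0.479, adjusted p = 0.000351), from no more than 2.9 FPKM. H2bc1, which encodes a testis-specific H2B, did not pass (log2 fold change −3.76, adjusted p = 0.00152). Both are low in these oligo(dT) libraries, at 2.33 and 2.12 FPKM on average in WT.

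Of 13 factors that remove histones or help to load protamines, 8 fell and none rose, with a median of −3.05. With total-count scaling and with both limma fits the tally was 6 lower and 2 higher. Chd5, a chromatin remodeler, fell by 6.96 (SE 0.359, adjusted p = 3.21e-05), from 29.58 to 37.18 FPKM in the WT samples to 0.22, 0.43 and 0.52. Camk4, a kinase that phosphorylates PRM2, fell by 6.01 (SE 0.235, adjusted p = 2.70e-05). Epc1, a subunit of a histone acetyltransferase complex, was at −0.63 (adjusted p = 0.00404) and Pygo2, a PHD finger protein, at 0.33 (adjusted p = 0.0321). Neither passed, and with total-count scaling Epc1 turned to 0.22 and Pygo2 to 1.19. Pygo2 and Rnf8, a ubiquitin ligase named after its values were seen, were the 2 called higher there.

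Of 8 transcription regulators of spermatids, 6 fell, with a median of −5.39. Fhl5, the coactivator of CREM also called ACT, fell by 8.61 (SE 0.676, adjusted p = 8.46e-05), from 387.1 to 392.36 FPKM in the WT samples to 0.59, 2.45 and 2.67. Kif17, a kinesin that moves this coactivator out of the nucleus, fell by 6.70 (SE 0.751, adjusted p = 0.000308). Tbpl1, which encodes a relative of the TATA-binding protein, fell by 4.04 (SE 0.357, adjusted p = 0.000125). Taf7l had a log2 fold change of −1.66 (adjusted p = 0.218), with 0.23, 12.84 and 24.85 FPKM in cKO replicates 1, 2 and 3. The last was above the WT samples in FPKM, while on TMM-scaled counts all samples labelled cKO lay below them. Crem, named here after its values were seen, fell by 4.46 (SE 0.274, adjusted p = 4.36e-05), and 7.69 to 14.48 FPKM of it remained.

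Of 10 factors that store spermatid mRNAs or regulate their translation, 5 fell and none rose, with a median of −3.45. Papolb, a cytoplasmic poly(A) polymerase of spermatids, was at −6.24 (adjusted p = 0.0104) and Ybx2, the Y-box protein that binds protamine mRNAs, at −5.92 (adjusted p = 0.00594). Neither passed the thresholds, and cKO replicate 1, with 0.06 and 1.84 FPKM, stood apart from the others, with 12.08 and 15.11 of Papolb and 79.13 and 103.27 of Ybx2. Elavl1 was at 0.04 (adjusted p = 0.753), which turned to −0.16 with DESeq2's size factors. Tsn was at 0.86 (adjusted p = 0.000723), under the threshold of size and called higher, at 1.72, with total-count scaling.

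The marker lists gave the frame for these changes. Of the elongating spermatid markers 5 of 10 fell (median −9.33), and of the round spermatid markers 6 of 10 (median −7.14). These counts depended on the fit. Elongating and round markers called lower were 5 and 3 with total-count scaling and 10 and 10 with DESeq2. With limma they were 6 and 4 on log2(FPKM + 0.1) and 10 and 9 on log2(FPKM + 1). None of 10 spermatocyte markers passed the thresholds (median −4.22), although 7 had an adjusted p-value under 0.05 and DESeq2 called 6 of them lower. Without cKO replicate 1, in which the spermatocyte and spermatid markers were nearly absent, 9 spermatocyte, 10 round and 10 elongating spermatid markers passed, as did 7 of the histone variants, 9 of the removal factors, 7 of the transcription regulators and 8 of the mRNA factors. With any 1 of the other 5 samples left out, the counts were 2 for the histone variants, 5 to 6 for the removal factors, 3 to 4 for the transcription regulators, 3 for the mRNA factors, 1 to 3 for the elongating and 2 for the round spermatid markers. The count over all 15919 genes tested moved in the same direction, from 7434 to 10301 without cKO replicate 1 and to 2695 to 4688 without 1 of the others.

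**Figure D4:**
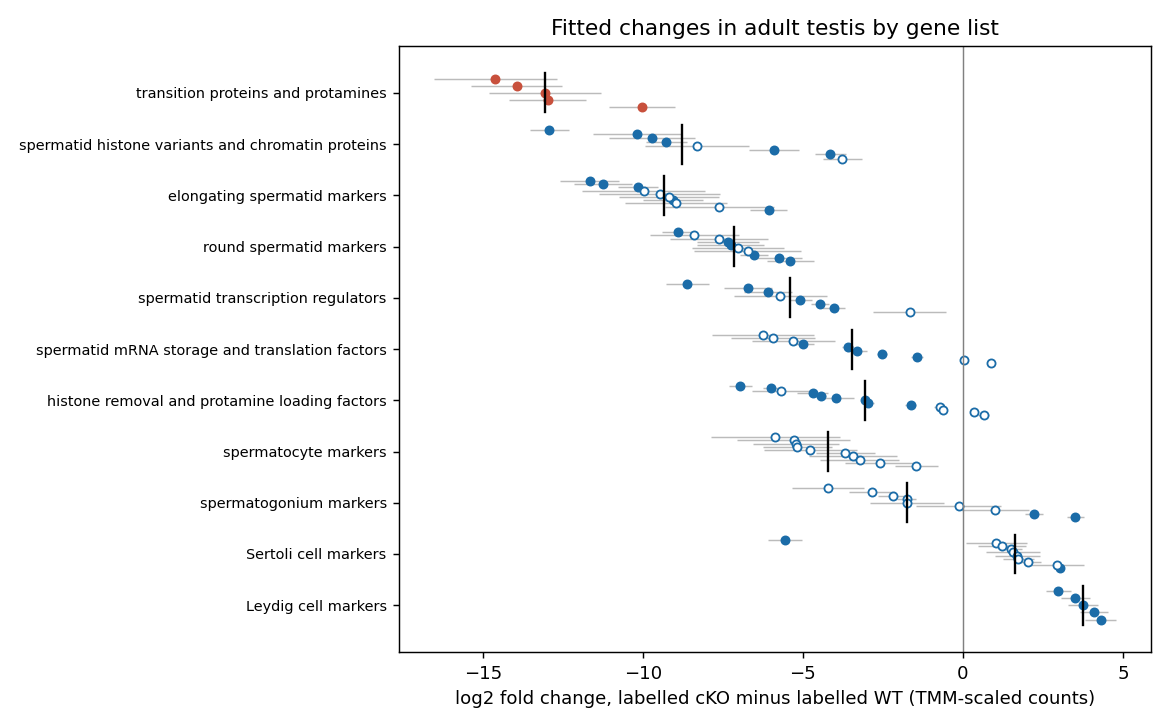
Log2 fold changes in adult testis, labelled cKO minus labelled WT on TMM-scaled counts, for the genes tested of each list, with bars for the SE, filled points for genes past both thresholds, open points for the others and a line at the median of each list. The transition proteins and protamines (median −13.05) lie farthest to the left, and the Leydig cell markers (median 3.75) farthest to the right.

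Some markers of somatic cells passed the thresholds in the other direction in the same samples. All 5 Leydig cell and 5 macrophage markers rose, as did 3 of 5 of peritubular myoid cells, with medians of 3.75, 3.64 and 2.39. Over all genes tested, 23% were called higher and 23.7% lower. Without WT replicate 1, 2 or 3 or cKO replicate 2 none of the Leydig cell markers was called, and 2 were without cKO replicate 3. In the same fits 3 to 5 macrophage and 0 to 1 myoid cell markers were called, and without cKO replicate 1 the counts were 5, 5 and 4 for Leydig cells, macrophages and myoid cells. Of 10 Sertoli cell markers 1 rose (Gata4) and 1 fell (Rhox5), with a median of 1.63, and their summed FPKM was 576 to 747 in the WT samples and 2733 to 5790 in those labelled cKO, lowest in replicate 1. Most of the sum in cKO replicate 1 came from Clu (1856.83 FPKM) and Inha (765.73). There the median of the list was 159.6% of the WT mean, and Sox9 (65.7%), Dhh (64.2%), Fshr (25.1%) and Rhox5 (1.85%) lay below their WT means in FPKM. Without that replicate 9 Sertoli cell markers were called higher. Of 9 spermatogonial markers tested, 2 rose (Zbtb16 and Kit) and none fell, with a median of −1.75. DESeq2 called 4 lower and 2 higher, and in edgeR 3 rose and 3 fell without cKO replicate 1 and 0 or 1 rose without any other sample. In cKO replicate 1 the median of the spermatogonial list was 7.65% of the WT mean in FPKM, with Zbtb16 at 675.9% and Kit at 1899%. The part of cell composition in the differences of the 5 genes was not tested.

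The genes whose pattern was most like that of the 5 were found by the root mean square difference of centred log2(FPKM + 0.1) over the 6 adult samples. Closest to the mean of the 5 were 1700042G07Rik (0.923), 1700015G11Rik (1.04), Dnajb8 (1.09), H2al2a (1.18) and Spata3 (1.20), with WT means between 875.3 and 1386 FPKM and at most 3.14 FPKM in any sample labelled cKO. Prm2 and Tnp2 were closest to each other (0.414), and the next for each was Tnp1 (0.587 from Prm2 and 0.598 from Tnp2). Tnp1 was closest to Prm2 and then Tnp2. Prm1 was nearest to Tnp2, Prm2 (1.36) and Tnp1 (1.80), in that order. Prm3 had no other gene of the 5 among its nearest, which were 1700092M07Rik (0.537), Cypt12 (0.542) and H2bl1 (0.551).

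Neighbouring genes were not low in the same way. Below the cluster on chromosome 16, Socs1, a cytokine signalling inhibitor 2399 bases from Tnp2, had a log2 fold change of −0.18 (SE 0.217, adjusted p = 0.460), and Clec16a, 43057 bases away, one of −0.55 (adjusted p = 0.00431, under the threshold of size). Both signs depend on the scaling: in FPKM, Socs1 had 3.36 to 3.94 in the WT samples and 5.18 to 6.68 in those labelled cKO, and Clec16a 14.93 to 17.26 and 20.04 to 20.97. Above it, Rmi2, 38236 bases away, was at −1.73 (adjusted p = 0.0405) and did not pass. Litaf, 162450 bases away, rose by 2.74 (SE 0.163, adjusted p = 4.13e-05). On the side below Tnp1, Igfbp5, 140209 bases away, rose by 4.39 (SE 0.507, adjusted p = 0.000350), and Igfbp2, 162600 bases away, did not pass (0.79). On the other side the genes are farther off, with Tns1 (−0.82) at 894333 bases and Arpc2 (0.13) at 1220591 bases, and neither passed.

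At day 7 the comparison asks the same of Sertoli cells, at an age when no spermatids have formed. Tnp1 had 1 count in each sample labelled WT, at 0.36 and 0.37 FPKM, and 0 counts in each labelled cKO. The exact Poisson 95% interval of a count of 0 reaches 3.69 counts, so no difference was detectable at this depth, and both groups were at the floor of 3 counts. The gene did not pass the filter on low values, and Prm1, Prm2, Prm3 and Tnp2 were not listed. The markers of round spermatids that were listed summed to 1.66 to 2.63 FPKM per sample. Sertoli cell markers summed to 1675 and 1530 FPKM in the WT samples and to 854 and 1226 in those labelled cKO. Markers of peritubular myoid cells summed to 1947 and 1849 and to 3427 and 3483, and those of spermatogonia to 210.3 and 203.2 and to 145.8 and 141.3.

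At day 7 none of the 12880 genes tested passed the thresholds with edgeR, or 0%, in either direction, with 15.5% at an unadjusted p-value under 0.05, and DESeq2 called 126. Rnf20 had 16.64 and 16.01 FPKM in the WT samples and 10.25 and 12.58 in the others, and its fitted difference was −0.49 ± 0.12 (SE) on the log2 scale (adjusted p = 0.222, edgeR quasi-likelihood test). Of the factors listed above, 11 for histone removal, 5 of transcription and 9 of mRNA storage were tested, with medians of −0.09, −0.01 and 0.07, and none passed.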

How the data were processed

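RNA-seq of 6 adult testis and 4 day 7 Sertoli cell samples was analysed, grouped by label. The authors sequenced oligo(dT)-enriched RNA on the BGISEQ platform, aligned reads with HISAT to GRCm38.p6, and with Bowtie2 to reference genes, and derived FPKM with RSEM. Versions and strand settings are not given in the sources used here. The labels give the enrichment for both tissues. Mapping and quantification are stated for the day 7 samples. For adult testis the column names give only FPKM, TPM and read counts, so the same mapping and quantification are assumed. One label calls every sample adult, and the age of 7 days in the titles was used. The study gives more individuals per group at day 7 than the 2 samples analysed here. Nothing in the labels says that adult samples are separate animals, so p-values measure the spread between these samples.

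The deposited estimated counts are not normalized and were rounded. The deposited FPKM values are scaled by effective length and library size, and the deposited TPM values add up to 1 fixed total per sample. A further 20 columns of the adult table hold no value and were not used.

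Each table was tested alone with edgeR's quasi-likelihood test, TMM scaling and Benjamini-Hochberg adjustment over all genes with at least 0.5 FPKM in at least as many samples as the group size, 15919 in adult testis and 12880 at day 7. The call was an absolute log2 fold change over 1 with adjusted p under 0.001. An SE was derived from the log2 fold change and its F statistic. A group with at most 3 counts in every sample was at the floor. Non-overlap of genes was judged on TMM-scaled counts. TMM factors were 0.711 to 0.761 in adult WT and 1.27 to 1.42 in adult samples labelled cKO. Replicates differed beyond counting noise (chi-square per degree of freedom 2.73 to 124). Intervals and floors cover counting error only. The fits were tested on simulated data with 200 changed genes. There a gene counted as recovered at an adjusted p under 0.05 without the threshold of size, a looser rule than the call. The adult fit recovered 2.22% of simulated 2-fold changes and 50.9% of larger ones, with 2 false calls. The day 7 fit recovered 62.4% and 84.8%, with 15 false calls. A gene that did not pass may therefore still differ.

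The 5 genes and the gene lists were chosen with earlier results of these data known. Besides the 5 genes and Rnf20, the text names the 2 genes with the largest and the 2 with the smallest absolute log2 fold change in each chromatin, transcription and mRNA list, the genes nearest in pattern, and the 2 tested neighbours on each side. Other genes were named after their values were seen. Alternatives covered scaling, tool, pseudocount, filter, replicate block and each sample left out. Ratios per full transcript length and list counts under each alternative were added after seeing the data. Tools were edgeR 4.0.16, limma 3.58.1 and DESeq2 1.42.0 in R 4.3.3, and Python 3.11.15 with numpy 2.4.6, pandas 2.3.3, scipy 1.17.1 and matplotlib 3.10.9.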

Additional observations from a re-analysis of the deposited data

How the results depend on the processing

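No alternative turned the direction of the 5 genes in adult testis. With all samples kept, 39 of 45 fits of a gene passed both thresholds. The exceptions were Prm3 with limma on log2(FPKM + 0.1), at −10.15 (adjusted p = 0.00114), and all 5 genes with the replicate number as a block, at −15.76 for Prm1, −14.55 for Prm2, −10.23 for Prm3, −13.39 for Tnp1 and −14.11 for Tnp2 (edgeR, adjusted p 0.00202 to 0.00459). Under that block 0 adult genes passed, against 7434 without it, and 12563 had an unadjusted p-value under 0.05. Same-numbered adult samples were correlated at 0.00624 to 0.0274 in their deviations, so the numbers were not taken to pair samples. With 1 sample left out, 9 of 30 fits passed, and the log2 fold change ran from −17.48 to −13.89 for Prm1, −15.49 to −13.29 for Prm2, −10.46 to −9.34 for Prm3, −13.97 to −12.32 for Tnp1 and −15.25 to −12.35 for Tnp2. The count of adult genes past the thresholds ran from 2695 without WT replicate 2 to 10301 without cKO replicate 1. The split of adult calls, 3773 lower and 3661 higher, was 2253 and 5833 with total-count scaling and 2468 and 5867 with limma on log2(FPKM + 0.1). At day 7 the count of 0 became 126 with DESeq2 and ran from 0 to 650 with 1 sample left out, where the lone sample of a group is assumed to vary like the others. It was 61 without cKO replicate 1 and 650 without cKO replicate 2. Relative to elongating spermatid markers Tnp1 was at −4.15 with a pseudocount of 1, against −3.48. Per full transcript length, the WT ratios became 1.54 for Prm1 to Prm2, 0.559 for Tnp1 to Tnp2 and 2.16 for Prm1 to Tnp1, where FPKM gave 2.90, 0.748 and 2.73. In alternatives chosen after seeing the data for Rnf20 and the 8 neighbouring genes, signs turned for 5 of these 9, none of which passed: with total-count scaling Socs1 was at 0.67, Clec16a at 0.30 and Tns1 at 0.012, with limma on log2(FPKM + 0.1) Socs1 was at 0.64 and Clec16a at 0.33, and with DESeq2's size factors in edgeR Arpc2 was at −0.073 and Rnf20 at −0.075. The cause of the other shifts was not tested. Depth limits the samples labelled cKO, in which the 5 genes together held 6 to 206 counts.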
